A study of Mus musculus with 12 samples.

Results

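Rbm3 and Cirbp, the 2 cold-inducible RNA-binding proteins among the 21878 genes in the deposited tables, were taken by their gene symbols. They were followed in RNA-seq of mouse brain tissue that the series text calls hippocampal, in 12 libraries that form 4 groups of 3. The groups were presenilin double-knockout mice (DKO) killed at night, wild-type mice (WT) killed at night, DKO mice killed by day and WT mice killed by day. DKO denotes a conditional double knockout of the presenilins, which form the catalytic core of gamma-secretase. Killing was at 9 p.m. for night and 9 a.m. for day, and all 4 groups had deep anaesthesia with 30 mg/kg sodium pentobarbital. The labels give no Cre driver, age, sex, strain or light schedule, and do not say whether a library is 1 mouse, so that p-values measure the spread between these libraries only. Body temperature was not measured.

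Rbm3 and Cirbp are small relatives with an RNA recognition motif and a glycine-rich tail, and mild cooling of mammalian cells raises both. In mice, Rbm3 raised by cooling has been linked to protection of synapses in models of neurodegeneration, with the reticulon Rtn3 as a downstream transcript. Cirbp binds the transcript of the circadian factor Clock in cultured mouse cells, and its own level runs opposite to the daily cycle of body temperature. Mice are active in the dark, and their body temperature is lower in the light phase.

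Rbm3 (NCBI gene 19652, measured through transcript NM_016809.6) lies at chrX:8138975-8145880 and Cirbp (12696, XM_006513165.1) at chr10:80165990-80172786, both in build GRCm38.p6. The start of the coding sequence, which runs into the RNA recognition motif, shows how close the pair is at the RNA level. Bases 7 to 126 of each coding sequence (GENCODE) are given 5′ to 3′, with capitals at the 32 of 120 positions where they differ.
Rbm3: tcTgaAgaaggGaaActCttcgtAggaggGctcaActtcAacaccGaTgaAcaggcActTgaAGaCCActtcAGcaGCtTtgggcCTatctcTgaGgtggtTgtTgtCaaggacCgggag
Cirbp: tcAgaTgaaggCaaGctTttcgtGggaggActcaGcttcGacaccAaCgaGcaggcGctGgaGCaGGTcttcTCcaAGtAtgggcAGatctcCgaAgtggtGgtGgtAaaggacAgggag
The stretches are 73.3% identical, and the whole coding sequences, of 154 and 172 codons, are 72.8% identical over 453 aligned bases. A pseudogene is closer still. Rbm3-ps on chromosome 1, with a transcript of 465 bases, matches the Rbm3 transcript at 462 of 465 aligned bases (99.4%). The match covers only part of the Rbm3 transcript, which has 2792 bases. The antisense RNA Rbm3os overlaps Rbm3 by 454 bases. Whether counting used strand or split reads between copies is not given in the sources used here, so the Rbm3 level is uncertain to that extent.

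Cirbp has 2 promoter windows in the RefSeq table (GRCm38.p6), each of 300 bases around a start site and mostly before it. The first is shown as far as the start of the GENCODE transcript, because it holds an octamer, TCCCCGCC, reported as a mild cold response element of Cirbp. Capitals mark it in the 189 bases of chr10:80167589-80167777 on the plus strand.
Cirbp promoter: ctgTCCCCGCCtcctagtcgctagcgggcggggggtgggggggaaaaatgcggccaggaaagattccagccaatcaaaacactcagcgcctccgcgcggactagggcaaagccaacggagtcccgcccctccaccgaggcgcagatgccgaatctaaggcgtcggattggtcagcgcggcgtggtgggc
The octamer lies at chr10:80167592-80167599, and the second window has none. It was found on either strand in 5.38% of the 32851 windows of this length in the table. The GC box GGGCGG, the letters that Sp1 binds, was found 3 times in the first window and 4 times in the second, against a share of 35.7% of all windows with at least 1. Neither window held the E-box CACGTG, the D-box TTATGTAA, the heat shock core GAANNTTC or the cyclic AMP response element TGACGTCA. These letters occurred in 7.15%, 0.938%, 7.86% and 1.79% of all windows. The motifs were chosen after this promoter had been seen, both strands were searched and matches were allowed to overlap.

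The tables give FPKM, fragments scaled by transcript length and by the library's mapped fragments, with no counts, so that sequencing depth is unknown and the sums of 151059 to 175692 FPKM per library are no measure of it. Psen2, whose loss checks the genotype labels, was at 0.275 to 0.594 FPKM in DKO libraries and 1.47 to 3.64 FPKM in WT libraries. Night WT replicate 1 stood apart in its Y-linked transcripts, with Ddx3y at 0.0225 FPKM against 6.83 to 8.56 FPKM elsewhere. Its X-linked Eif2s3x (18.9 FPKM against 9.90 to 13.1 FPKM elsewhere) and Ddx3x (40.8 FPKM against 28.4 to 33.8 FPKM) were the highest of all 12 libraries, so that it may differ from the others in sex, which the labels do not give. All 8 hippocampal markers were detected and summed to 105 to 135 FPKM. A choroid plexus list of 10 markers, none at 0, varied more widely. It summed to 1882 to 2979 FPKM in night DKO, 1341 to 3107 FPKM in night WT, 61.5 to 1772 FPKM in day DKO and 1100 to 2733 FPKM in day WT libraries.

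Both genes were higher at 9 p.m. than at 9 a.m. over both genotypes, Rbm3 by more than Cirbp, and neither passed the test between DKO and WT. Rbm3 was at 8.63, 7.10 and 6.66 FPKM in the night DKO libraries (7.46 ± 1.03, SD, n = 3). The day DKO libraries had 2.45, 3.85 and 3.63 FPKM of Rbm3 (3.31 ± 0.755, SD, n = 3). In WT, Rbm3 was at 7.51, 11.5 and 8.92 FPKM at night (9.30 ± 2.00, SD, n = 3), against 3.82, 3.99 and 4.62 FPKM by day (4.14 ± 0.421, SD, n = 3). Every night library thus had more Rbm3 than every day library, with night at 6.66 to 11.5 FPKM and day at 2.45 to 4.62 FPKM. Of the 12689 genes tested, 2.84% (361) had all 6 night libraries above all 6 day libraries.

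Differences were tested with limma on log2(FPKM + 1), a scale that understates the change of low genes, with Benjamini-Hochberg adjustment over the 12689 genes that reached 0.5 FPKM in at least 3 libraries. A gene was called at an adjusted p under 0.05. Rbm3 rose at night by 0.98 averaged over genotype (SE 0.105, 95% interval 0.76 to 1.21, adjusted p = 0.000569 by limma), in a comparison that called 6.07% of tested genes. Its difference was the 7th in size among all tested genes. That comparison called 659 genes higher and 111 lower at night, but 207 higher and 282 lower under median-of-ratios scaling, where Rbm3 was still higher by 0.93 and Cirbp by 0.55, both called. Within DKO the Rbm3 difference was 0.98 (adjusted p = 0.0137, limma) where 0.299% of genes were called, and within WT it was 0.99 (adjusted p = 0.0180, limma) where 1.67% were called. The DKO call was lost without night DKO replicate 2 (adjusted p = 0.0509, limma) and with no filter on low values (adjusted p = 0.0687, limma). The WT call was lost without day WT replicate 1 or without any 1 of the 3 night WT replicates, at adjusted p-values up to 0.0868 by limma. Without night WT replicate 1, the library with low Y-linked transcripts, the averaged difference of the X-linked Rbm3 was 1.05 (adjusted p = 0.000594, limma).

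**Figure D1:**
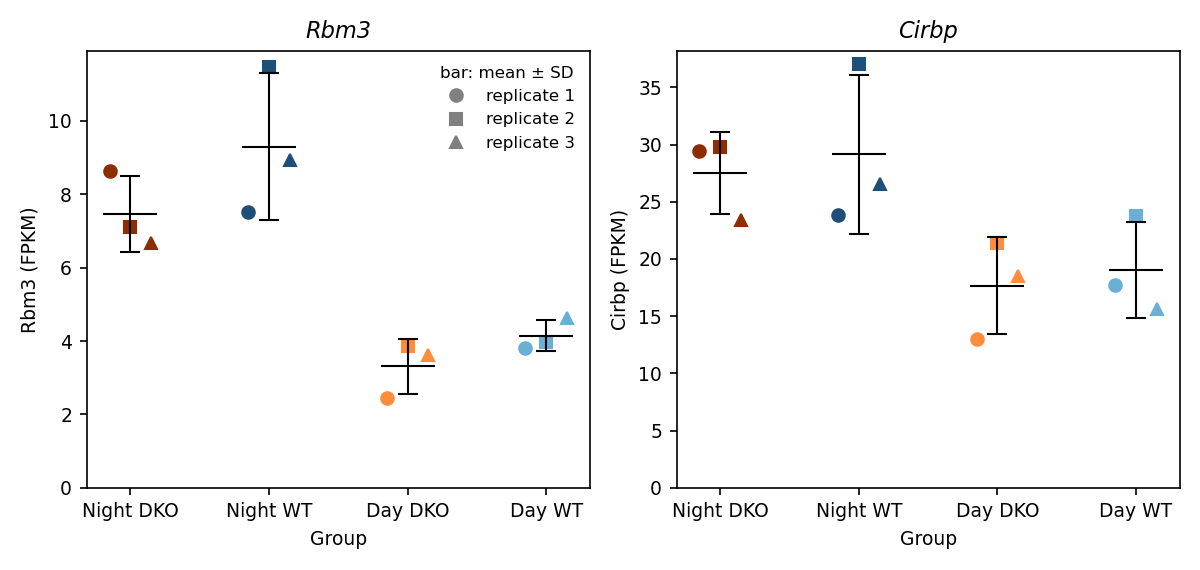
Rbm3 and Cirbp in FPKM (y axes) in each library of the 4 groups (x axes). Symbols are replicates and bars the mean ± SD of 3 libraries. Rbm3 does not overlap between night (6.66 to 11.5 FPKM) and day (2.45 to 4.62 FPKM), while Cirbp does, since night DKO replicate 3 (23.4 FPKM) lies under day WT replicate 2 (23.8 FPKM).

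Cirbp was the more abundant per length and followed the same order of group means. It was at 29.4, 29.8 and 23.4 FPKM in night DKO libraries (27.5 ± 3.59, SD, n = 3), against 13.0, 21.4 and 18.5 FPKM in day DKO libraries (17.7 ± 4.23, SD, n = 3). In WT it was at 23.8, 37.0 and 26.6 FPKM at night (29.1 ± 6.95, SD, n = 3), against 17.7, 23.8 and 15.6 FPKM by day (19.0 ± 4.23, SD, n = 3). Within DKO night and day did not overlap, which held with night higher for 12.9% of tested genes. Within WT the gap was narrow, 23.83 FPKM in night replicate 1 against 23.76 FPKM in day replicate 2, and 24.3% of tested genes had no overlap with night higher. Across genotypes the times overlapped.

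Cirbp rose at night by 0.61 averaged over genotype (SE 0.137, 95% interval 0.31 to 0.91, adjusted p = 0.0271 by limma). Within either genotype it did not pass, at 0.63 in DKO (adjusted p = 0.173, limma) and 0.59 in WT (adjusted p = 0.114, limma). The averaged call was lost when day WT replicate 1, day DKO replicate 1, night DKO replicate 1 or 2, or night WT replicate 2 was left out, at adjusted p-values of 0.0524 to 0.0649 by limma. It was also lost with no filter on low values (adjusted p = 0.0593, limma). An exact 2-sided permutation test of time within genotype, with 400 arrangements, gave 0.005 for Rbm3 and 0.005 for Cirbp (0.01 each after adjustment over 6 tests), the smallest p it can give. A covariate for the choroid plexus markers left the averaged differences at 1.08 for Rbm3 and 0.68 for Cirbp, both called.

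Blood markers moved with the night rise of both genes. All 5 of 5 (the globins Hba-a1, Hba-a2, Hbb-bs and Hbb-bt, and Alas2 of heme synthesis) were called higher at night averaged over genotype, with a median difference of 0.50, beside 0.05 over all tested genes and 6.07% of genes called. Their summed level was 116 to 159 FPKM in night DKO against 90.5 to 110 FPKM in day DKO libraries, and 171 to 285 FPKM in night WT against 111 to 153 FPKM in day WT libraries, with no marker at 0. Night and day did not overlap within either genotype. Blood was not the only marker list to differ with time averaged over genotype. The choroid plexus median was 0.63 (10 of 10 above 0, 0 called) and that of meningeal fibroblasts 0.32 (1 of 7 called). Excitatory neuron markers had a median of -0.08 (1 of 6 called, lower at night). The part of blood in the Rbm3 and Cirbp values was not tested.

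The order of the mean levels was night WT, night DKO, day WT and day DKO for both genes. Neighbours of the same time differed by less than the test could resolve. By day Rbm3 differed between DKO and WT by -0.27 (95% interval -0.59 to 0.05, adjusted p = 0.378, limma), where 1.18% of genes were called. At night it was likewise -0.27 (-0.59 to 0.05, adjusted p = 0.618, limma), where 0.0236% were called. The day value was -0.11 without day DKO replicate 1 and -0.42 with the choroid plexus covariate, and the night value -0.13 without night WT replicate 2, none of them called. Averaged over time the difference was -0.27 (-0.50 to -0.04, adjusted p = 0.216, limma), where 1.88% were called. The exact 2-sided permutation test of genotype within time gave 0.04 for Rbm3, and 0.06 after adjustment over the 6 tests, so that the lower DKO mean does not pass. Cirbp differed less, by -0.11 by day (-0.53 to 0.31), -0.06 at night (-0.48 to 0.36) and -0.09 averaged (-0.38 to 0.21), with adjusted p-values of 0.814, 0.958 and 0.815 by limma. These intervals still hold moderate differences in either direction for Cirbp.

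Of 10 microglial markers, 6 were called higher in DKO averaged over time (median 0.79, beside 0.01 over all tested genes), where 1.88% of all tested genes were called. By day and at night 0 of the 10 were called, where 1.18% and 0.0236% of all tested genes were. The microglial markers summed to 105 to 240 FPKM in night DKO and 103 to 117 FPKM in night WT libraries. By day they summed to 162 to 181 FPKM in DKO and 94.8 to 107 FPKM in WT libraries. By day the groups did not overlap. At night, DKO replicate 1 (105 FPKM) lay within the WT range while the other DKO libraries had 234 and 240 FPKM. Of the 5 blood markers, 3 were called lower in DKO averaged over time (median -0.52), and of 7 meningeal fibroblast markers 4 were (median -0.57). Of 13 endothelial and mural markers, 3 were called lower in the same comparison (median -0.20). The part of these cells in the Rbm3 values was not tested, and in bulk tissue fewer cells of a type cannot be told from less RNA per cell.

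No difference between genotypes in the night rise was detected, with wide intervals. The interaction, the DKO night-day difference minus that of WT, was -0.0046 for Rbm3 (95% interval -0.46 to 0.45, adjusted p = 0.995, limma) and 0.05 for Cirbp (-0.55 to 0.64, adjusted p = 0.971, limma). Limma called 0 genes (0.0%) in this comparison, with 1099 at an unadjusted p under 0.05.

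**Figure D2:**
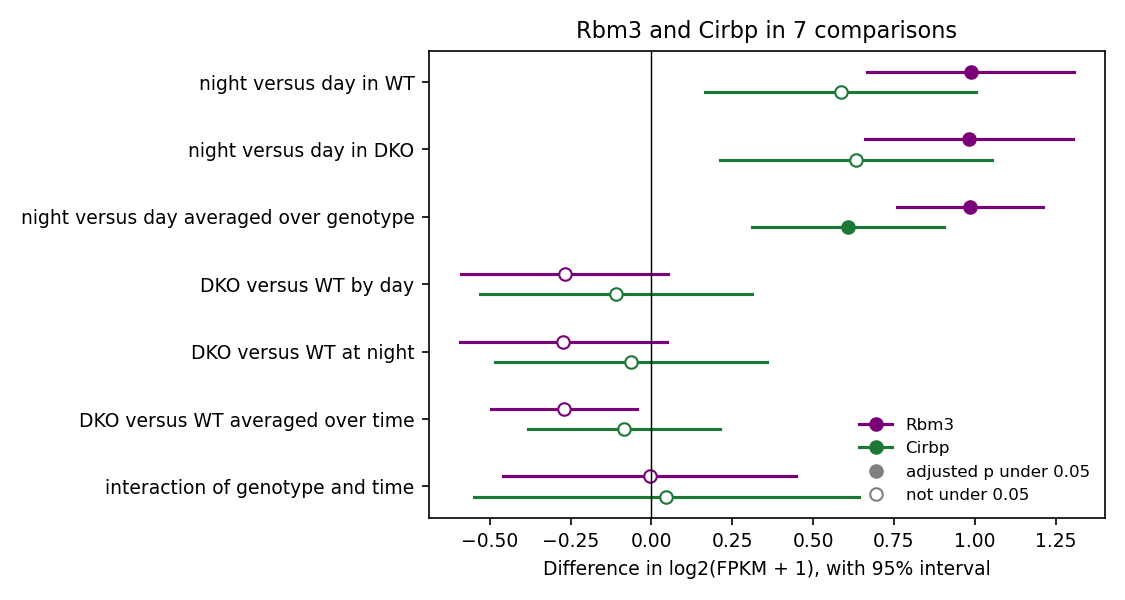
Differences in log2(FPKM + 1) (x axis) for Rbm3 and Cirbp in 7 comparisons (y axis), from limma. Points are estimates, filled where the adjusted p is under 0.05, and lines are 95% intervals. Night differences lie above 0 for both genes (0.98 and 0.61 averaged), while every DKO-WT interval except the averaged one of Rbm3 spans 0.

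Rbm3 gained on Cirbp at night. The log2 ratio of Rbm3 to Cirbp FPKM was -1.77, -2.07 and -1.81 in night DKO libraries and -2.41, -2.47 and -2.35 in day DKO libraries. In WT it was -1.67, -1.69 and -1.58 at night and -2.21, -2.58 and -1.76 by day. Night was above day without overlap within each genotype, although day WT replicate 3 (-1.76) was above all 3 night DKO libraries. Put as a plain ratio, Cirbp was 2.98 to 4.20 times Rbm3 at night and 3.38 to 5.96 times by day. The ratio of Rbm3 to Cirbp was higher at night by 0.53 on the log2 scale, or 1.45-fold (exact 2-sided permutation p = 0.005, the smallest possible, 0.01 adjusted over 6 tests). Between DKO and WT it differed by -0.24 (exact permutation p = 0.08, adjusted 0.096). Without day WT replicate 2 that difference was -0.33 (exact permutation p = 0.005).

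**Figure D3:**
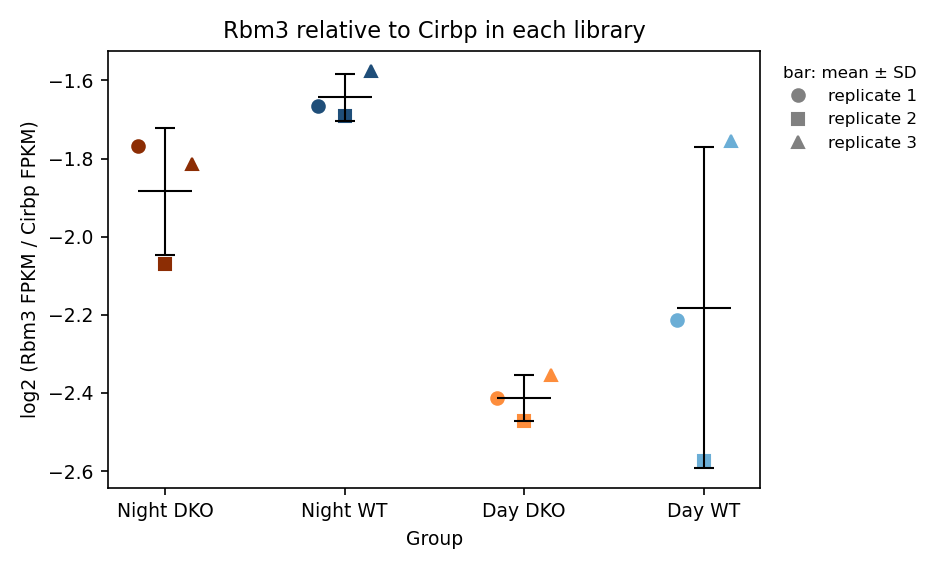
The log2 ratio of Rbm3 to Cirbp FPKM (y axis) in each library of the 4 groups (x axis). Symbols are replicates and bars the mean ± SD of 3 libraries. Night libraries lie at -2.07 to -1.58, and day libraries at -2.58 to -1.76.

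Within a time of day, the link between the genes across libraries was not established. Over the 6 day libraries Pearson's r of log2(FPKM + 1) was 0.54 (exact permutation p = 0.276, adjusted 0.276) and Spearman's rho 0.37 (exact permutation p = 0.497). Over the 6 night libraries r was 0.80 (exact permutation p = 0.0486, adjusted over both times 0.0972) and rho 0.60 (exact permutation p = 0.242). Without the 2 libraries farthest from the median of Rbm3, r was 0.75 by day and 0.025 at night. Those left out at night were night WT replicate 2 and night DKO replicate 3. Leaving out the extremes narrows the range of Rbm3 and keeps only 4 libraries, so it cannot show what the night value rests on.

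Over all 12 libraries, where day and night form separate clusters, r serves only to rank likeness among 7784 genes of at least moderate level. Cirbp ranked 70th for likeness to Rbm3 and Rbm3 39th for likeness to Cirbp, at r = 0.88. The genes most like Rbm3 were Slc6a15, a neutral amino acid transporter (r = 0.97), Use1, a SNARE of the endoplasmic reticulum (0.96), and Psma2, a proteasome core subunit (0.95), followed by Slc25a12, Rps10 and Prdx1. Slc6a15 averaged 9.71 FPKM in night DKO, 10.4 in night WT, 7.61 in day DKO and 8.18 in day WT libraries. The least like were Gabra2, a GABA-A receptor subunit (-0.91), Rbm28 (-0.91) and Crocc (-0.88). For Cirbp the most alike were Cdk5rap3 (0.96), Dtd1 (0.95) and Apmap (0.95), followed by Akr1a1, Apbb3 and Lmna, which encodes a nuclear lamin. The least like were Zbtb20, a transcription factor of hippocampal neurons (-0.94), Soga3 (-0.89) and Vps13c (-0.89). These named extremes share no gene, but they do not mark separate sets. The 6 genes most like Rbm3 had r = 0.78 (Prdx1) to 0.90 (Slc6a15) with Cirbp. Those most like Cirbp had 0.81 (Lmna) to 0.86 (Akr1a1) with Rbm3.

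None of the relatives or chromosomal neighbours of the pair was called between night and day, where 6.07% of all tested genes were averaged over genotype. Of 3 relatives, Rbmx and Rbmxl1 were tested and neither was called in any of the 7 comparisons, while Rbmxl2 was listed at 0. Rbmx was at 6.46 FPKM in night DKO, 7.40 in night WT, 5.76 in day DKO and 5.95 in day WT. Its night-day difference averaged over genotype was 0.21, just short of a call (adjusted p = 0.0512, limma). Rbmxl1 had 0.14 (adjusted p = 0.152, limma). The flanking genes Wdr13 and Tbc1d25 of Rbm3, and Midn and 1600002K03Rik of Cirbp, had night-day differences averaged over genotype of 0.06, -0.03, 0.07 and -0.36, none called (adjusted p = 0.177 by limma for 1600002K03Rik, which starts 158 bases past Cirbp).

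Upstream, 1 of 7 regulators was called between night and day averaged over genotype, where 6.07% of all tested genes were. Clk1, a kinase of splicing factors whose activity rises with cooling, was at 20.5 to 25.3 FPKM in night DKO and 13.5 to 18.5 FPKM in day DKO, and at 21.0 to 24.3 FPKM in night WT and 17.8 to 20.5 FPKM in day WT libraries. Night and day did not overlap within either genotype, as for 12.9% of tested genes in DKO and 24.3% in WT with night higher. Clk1 rose at night by 0.33 averaged over genotype (SE 0.076, adjusted p = 0.0283, limma), a call lost without day WT replicate 1, night DKO replicate 1, or night WT replicate 1 or 3 (adjusted p up to 0.0713, limma). It was also lost under median-of-ratios scaling (0.28, adjusted p = 0.0616, limma). The paralogue Clk4 had 0.19 (adjusted p = 0.0632, limma). Hnrnph1, a splicing regulator of RBM3 in human cells, had -0.09, and Ntrk2, the BDNF receptor upstream of Rbm3 in mouse neurons, 0.02. Over the 7 regulators the median night-day difference was 0.03, beside 0.05 over all tested genes.

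Downstream, none of the 4 tested transcripts of 5 reported as targets was called in any comparison. Of all tested genes, 0.0% (interaction) to 6.07% (night-day averaged over genotype) were called. The lack of calls among 4 genes therefore says little about the targets. Rtn3 averaged 62.2 FPKM in night DKO, 62.6 in night WT, 60.5 in day DKO and 57.7 in day WT, a night-day difference of 0.08. Clock had -0.03, and Txn1, the thioredoxin transcript that human CIRBP binds, 0.20 (adjusted p = 0.0679, limma). The targets had a median of 0.08, beside 0.05 over all genes. Igf2bp2 did not reach the expression filter. Binding and translation by the proteins were not measured.

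Heat-inducible chaperones are known for the opposite response to temperature. The list of 16 genes tested also holds their transcription factor, Hsf1. None of the 16 was called between night and day, where 6.07% of all tested genes were averaged over genotype. Their median averaged difference was 0.04, with 10 of 16 above 0. The most abundant, Hspa8, had -0.06 and Hsp90ab1 0.06. Less abundant genes of the list differed more. Hspa1b had 0.27 (adjusted p = 0.217, limma), Hspb1 0.245, Dnajb1 0.21 and Hspa1a 0.17, while Bag3 had -0.14. Hsph1 had night-day differences of -0.36 in DKO (adjusted p = 0.0636, limma), 0.01 in WT and -0.17 averaged (adjusted p = 0.0662, limma). Hsph1 alone was called, between genotypes, by day and averaged over time, where 1.18% and 1.88% of all tested genes were called. It was at 34.6 FPKM in day DKO against 25.5 FPKM in day WT libraries (0.43, adjusted p = 0.0232, limma), a call lost in 8 alternatives, among them leaving out day WT replicate 1 or 2 or day DKO replicate 2 or 3, quantile normalization and the choroid plexus covariate (adjusted p = 0.0560 to 0.125, limma). The averaged call (0.24, adjusted p = 0.0382, limma) was lost in 13 of 20 alternatives (adjusted p = 0.0524 to 0.102, limma). Among 11 SR splicing factors none was called, Srsf5 having -0.08 and Srsf3 0.14.

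Of 19 core clock genes, 11 rose at night and 1 fell averaged over genotype, where 6.07% of all tested genes were called. Those that rose were Dbp, Ciart, Nr1d2, Nr1d1, Per2, Per3, Bhlhe41, Bhlhe40, Cry1, Hlf and Tef. Dbp, a clock output factor, had the largest rise of the list, 1.42 (adjusted p = 8.9e-05, limma), and Arntl, the partner of Clock, fell by 0.51 (adjusted p = 0.000141, limma). In this average Rbm3 lay between Dbp and Ciart (0.95) in size, and Cirbp between Nr1d1 (0.64) and Per2 (0.43). The order differed by genotype. Dbp had 0.97 in WT and 1.87 in DKO, beside 0.99 and 0.98 for Rbm3. Nr1d1 had 0.41 in WT and 0.88 in DKO, beside 0.59 and 0.63 for Cirbp. None of these genes was called for the interaction, where 0.0% of all tested genes were. Between genotypes Arntl alone of the list was called, higher in DKO by day (0.36, adjusted p = 0.0232, limma), where 1.18% of tested genes were.

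**Figure D4:**
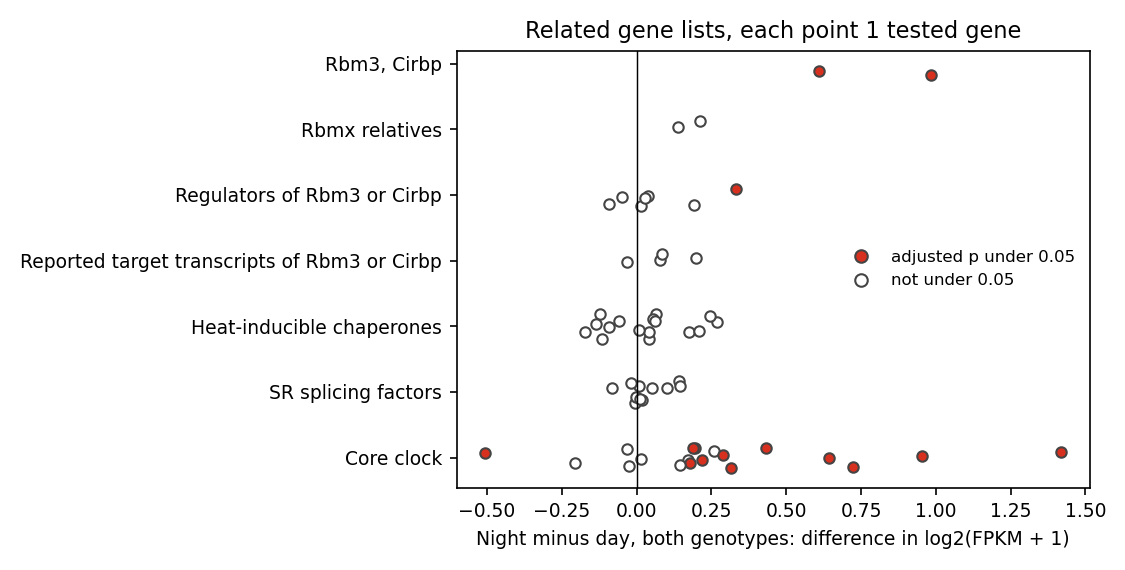
Night minus day, averaged over genotype, as a difference in log2(FPKM + 1) (x axis) for Rbm3, Cirbp and 6 lists of related genes (y axis). Each point is 1 tested gene, filled where the limma adjusted p is under 0.05, and vertical scatter within a list is arbitrary. Rbm3 (0.98) and Cirbp (0.61) lie right of all 16 genes of the chaperone list and all 11 SR factors tested, with clock genes on either side.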

How the data were processed

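Hippocampal RNA of 12 mouse libraries was sequenced from stranded total RNA after ribosomal RNA removal, per the labels' protocols. The authors deposited FPKM per gene in 12 tables, 1 per library, with build GRCm38.p6 per the submitters' processing notes. Aligner, quantifier and annotation release: not given in the sources used here. Among deposited values, the lowest FPKM above 0 was 1.26e-17, so these are estimates from which no whole counts can be recovered. A count model, foreseen had the tables held counts, was therefore not used.

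The 27 symbols deposited as calendar dates were set back to gene names. Genes with at least 0.5 FPKM in 3 libraries (12689) were tested with limma 3.58.1 in R 4.3.3 (1 mean per group over all 12 libraries, intensity trend, 2-sided, Benjamini-Hochberg) on log2(FPKM + 1), checked on simulated data. Alternatives changed the pseudocount, filter, scaling, variance model and covariates, or left out each library. Sequences came from GENCODE vM21 and RefSeq.

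Rbm3, Cirbp and all lists were chosen with earlier results of these data known. Named beside them were list members called in any comparison or among the 2 most abundant of their list, neighbours, and the 6 most and 3 least alike genes by Pearson's r. Ntrk2, Clk4, Clock, Rbmxl2, Igf2bp2, Hspa1a, Hspa1b, Hspb1, Dnajb1, Bag3, Hsf1 and the blood markers fall outside that rule and were named after their values were seen.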

Additional observations from a re-analysis of the deposited data

How the results depend on the processing

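The night rise of Rbm3 averaged over genotype was called under all 20 alternatives (0.91 to 1.15). Within WT it was called in 17 of 21 and within DKO in 19 of 21. With each library left out in turn, the Rbm3 difference was 0.84 to 1.12 in WT and 0.83 to 1.08 in DKO, and with no filter on low values the DKO difference was 0.98 (adjusted p = 0.0687, limma). Cirbp averaged over genotype was called in 14 of 20, at 0.51 to 0.69 with a library left out and 0.61 with no filter (adjusted p = 0.0593, limma). The Rbm3 interaction, near 0 throughout, changed sign to 0.036 (pseudocount 0.1), 0.047 (median-of-ratios scaling), 0.018 (quantile normalization), 0.015 (library weights) and 0.14 (choroid plexus covariate), and ranged from -0.16 to 0.14 with a library left out. With a library left out, Rbm3 ranged from -0.36 to -0.11 for DKO against WT by day, -0.40 to -0.13 at night and -0.33 to -0.19 averaged. Cirbp ranged from -0.25 to 0.083 for DKO against WT by day, -0.19 to 0.12 at night, -0.16 to 0.010 averaged, and -0.14 to 0.23 for the interaction, none called. The ratio of Rbm3 to Cirbp between DKO and WT ranged from -0.33 to -0.13, passing only without day WT replicate 2. The night correlation of 0.80 was 0.025 without the 2 farthest libraries. The causes were not tested. Of the 28 calls among list genes, 11 held in every alternative, and 141 of 574 alternative values lost the call with 0 reversed.

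Deviations of same-numbered libraries from their group means correlated at -0.116 to 0.247, over 0.1 in 7 of 18 pairs. Day DKO and night WT, which are not compared directly, were over 0.1 for all 3 numbers (0.168, 0.247 and 0.171). No directly compared pair of groups was, and the libraries were taken as unpaired, although these values do not settle it. As a hint from the data, 10 of 12 libraries correlated best on average with their own number, and replicate 2 had the highest Cirbp of every group. A fit with the replicate block gave 0.98 for Rbm3 (adjusted p = 0.00135, limma) and 0.61 for Cirbp (adjusted p = 0.00781, limma) averaged over genotype (Cirbp SE 0.0914, against 0.137 without the block), and changed no call of either gene.

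Counts of called genes moved more than the Rbm3 and Cirbp values. Between night and day, 770 averaged calls ranged from 243 (without day WT replicate 1) to 894, 38 in DKO from 15 to 69, and 212 in WT from 1 (without day WT replicate 1) to 418. Between DKO and WT, 150 by day ranged from 4 to 205, 3 at night from 2 to 38, and 238 averaged from 24 to 339. The interaction had 0 to 1. Depth is unknown, and 3 libraries per group limit the precision.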
